A study of Mus musculus with 74 samples.

Results

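The comparison described here is the PyMT-F1 Lung met against PT table deposited under the strain name AKR. All 17945 of its gene rows were taken, out of 108146 rows in the 6 comparison tables of the series. Of these, 17829 carried a p-value and both group means, and 116 were listed with no value. The cohort as labelled held 6 PTs and 6 Lung mets of AKR PyMT-F1 females, among 74 samples of several mammary tumor models. Each F1 female came from an FVB male carrying the polyoma middle T oncogene (PyMT) under the mouse mammary tumor virus promoter, mated to a wild-type inbred female, so both tissues carried the transgene in a heterozygous hybrid. Tumors arose spontaneously and were collected, with the metastases, when the animals reached a humane endpoint. All PTs of an animal were pooled, and metastases were taken whole. The ages of the animals were not given in the sources used here.

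The strain behind the table was not settled. The file name and the sample titles gave AKR, and a genotype label naming AKR/J was attached to samples whose titles named AKRJ, SEA/Gn or BALB, while some samples titled AKRJ carried genotype labels of the other crosses. The values, however, were those of another cross in the study, named BL6, within rounding for nearly all of the 275 genes that could be compared. AKR was not among the strains whose reported values could be compared. The table is therefore called by its contrast, and the number of animals behind its means is not stated. It held 1 mean per tissue, in normalized counts without SD, so values of single animals were not analysed, and the spread between animals enters only through the p-values. The means are not divided by gene length, so levels were compared between tissues and not between genes.

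A lung metastasis is a colony of mammary tumor cells that grows among alveoli, capillaries and resident immune cells of the lung. Bulk RNA from such a colony holds transcripts of the tumor cells together with those of any alveolar, endothelial, stromal and blood-derived cells in the piece. Lymphocytes recognize antigen through the T cell receptor with its CD3 chains, or through surface immunoglobulin with its CD79 chains, and reach tissues through adhesion molecules and chemokines. Fewer cells of a type and less RNA per cell cannot be told apart in such samples.

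The difference between the tissues lay mostly on the side of higher expression in Lung met. At an adjusted p under 0.05, 1371 genes were called, or 7.69% of those tested. Of these, 1024 were higher in Lung met (5.74% of genes tested) and 347 were lower (1.95%), so 74.7% of the calls were higher. Over all genes tested the median log2 quotient of Lung met over PT was 0.00718, and 50.8% of genes had a quotient above 1. The called genes that were higher had a median log2 quotient of 1.6 with quartiles of 1.14 and 2.29, and 846 of them differed at least 2-fold. Among the lower genes the median was -0.82, with quartiles of -1.34 and -0.59, and 135 differed at least 2-fold. Differences of at least 8-fold numbered 124 among the higher and 10 among the lower genes. The higher calls were thus the larger as well as the more numerous. Their median mean of both tissues was 169 normalized counts, beside 430 for the lower calls. The part of expression level in the sizes of the called differences was not tested. The gene groups that follow are 34 lists of 571 genes, of which 448 had a value. In 25 lists no gene was called lower. Of their 315 members with a value, 5 were lower at an unadjusted p under 0.05 from DESeq2. Beside this, 1017 of the 12646 genes shared with the BALB and SEAGN comparisons were lower here at that threshold. Because these lists were picked for having no lower call, a small count of lower members is in part fixed by the choice.

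**Figure D1:**
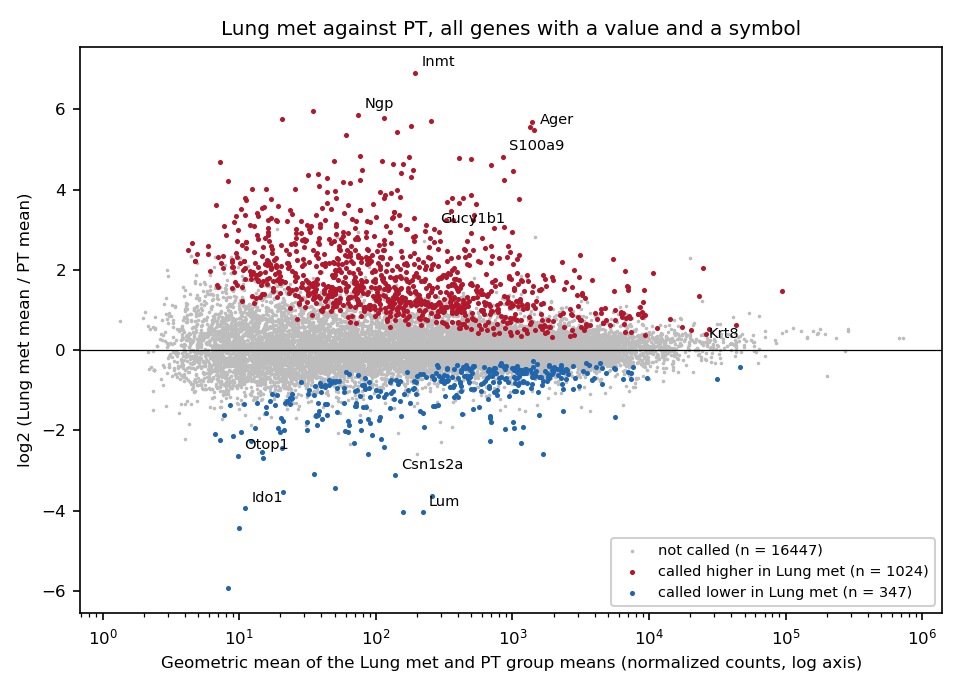
Each point is 1 gene of the table that has a value and a symbol, with the geometric mean of both group means on a log axis and the log2 quotient of Lung met over PT on the vertical axis. Red points (1024) were called higher and blue points (347) lower, and the red points reach 6.91 (Inmt) while most blue points lie between 0 and -2.

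The gene with the smallest p-value was Gucy1b1, which encodes the beta subunit of the nitric oxide receptor soluble guanylate cyclase. Its mean was 759 normalized counts in Lung met and 93.5 in PT, a log2 quotient of 3.02 (adjusted p = 7.71e-13). In the GENCODE M21 annotation on GRCm38 the gene lies on chromosome 3 from 82032006 to 82074689, on the minus strand. Next came Ildr2 (215 against 53.4) and the collagen IV alpha 3 chain gene Col4a3 (665 against 26.9), which is made by alveolar type 1 cells. Mab21l4, Prrg3 and Sema3e, a secreted semaphorin that acts on vessels, were higher by log2 quotients of 4.39, 2.95 and 3.87. Also among the leading 10 were Mmp8, the neutrophil collagenase, Gprc5a, an orphan receptor of lung epithelium, and Fmo2, a lung flavin monooxygenase. Their Lung met means were 275, 1900 and 1610, against PT means of 15.4, 153 and 116.

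Leading the lower genes was Otop1, a proton channel gene on chromosome 5 (38275972 to 38304217, plus strand, GRCm38), with a mean of 3.93 in Lung met and 24.4 in PT (log2 quotient -2.64, adjusted p = 2.2e-08). Kcnj16, an inward rectifier potassium channel, followed at 5.85 against 37.8. Egf, the gene of epidermal growth factor, which the mammary gland secretes, stood at 29.3 against 119 (log2 quotient -2.02). Ido1, which encodes the tryptophan-degrading enzyme indoleamine 2,3-dioxygenase, gave the widest gap of the 10, at 2.81 against 43.2 (log2 quotient -3.94). Smaller differences were those of Plxna3, a semaphorin receptor, Srsf5 and Rbmx, which encode splicing factors, and Ssh3, a cofilin phosphatase, with log2 quotients of -1.14, -0.7, -0.85 and -0.57. A530010L16Rik and Pwwp3b completed the 10, with -1.65 and -2.31. Of these 10 genes, Ssh3 thus had the smallest difference.

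Many lymphocyte genes were higher in Lung met. Over 5 lists of lymphocyte genes that hold 95 genes, 62 had a value, of which 32 were called higher, 1 was called lower and 29 were not called, and 54 of the 62 had a quotient above 1. Their median log2 quotient was 1.48, beside 0.00718 over all genes. The share called higher was 51.6%, beside 5.74% over the table. Ptprc, which encodes the CD45 antigen carried by all leukocytes, had a mean of 998 in Lung met and 511 in PT (log2 quotient 0.96, adjusted p = 0.0436).

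Of 25 genes of the T cell receptor complex and T cell coreceptors, 23 had a value, 12 were higher and 1 was lower, with a median log2 quotient of 1.57. The antigen receptor itself was among them, as the constant beta gene Trbc2 stood at 101 normalized counts in Lung met and 25.8 in PT (log2 quotient 1.97, adjusted p = 0.000832) and Trbc1 at 23.7 against 6.06. These neighboring genes are close in sequence, and their reads may have been split between them. Genes of the CD3 and zeta chains, which carry the signal of the receptor, followed: Cd3g had 52.2 against 19.3, Cd3d 37.4 against 10.5 and Cd247 82.1 against 27.6. For Cd3e the means were 26 and 11.4, and the difference did not pass (adjusted p = 0.205), nor did that of the alpha constant gene Trac, at 36.2 against 12.6 (adjusted p = 0.0533).

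The kinases that act just below the receptor gave log2 quotients of 1.11 for Lck and 1.93 for Zap70, both called. Cd2, an adhesion molecule of T and natural killer cells, stood at 119 against 17.4 (log2 quotient 2.77, adjusted p = 0.0023). The widest gap of the list was that of Icos, the inducible costimulator of activated T cells, at 21.7 against 3 (log2 quotient 2.86, adjusted p = 0.00227). Il7r, the receptor of a survival cytokine of naive and memory T cells, stood at 209 against 57.2, and Cd5 at 28.3 against 6.72. The coreceptors that part helper from killer cells did not pass: Cd4 had 73.1 against 50 (adjusted p = 0.397), Cd8a 22.6 against 30.6 (adjusted p = 0.642) and Cd8b1 16.5 against 6.56 (adjusted p = 0.119). Foxp3, the factor of regulatory T cells, had 45.6 against 18.5 (adjusted p = 0.0686). Lat, Cd28, Ccr7 and Bcl11b were not called either, with log2 quotients from 0.29 to 1.64. The single member called lower was Thy1, at 167 in Lung met and 442 in PT (log2 quotient -1.4, adjusted p = 0.037), a surface protein that fibroblasts carry as well as T cells. Summed over the list the level was 1470 in Lung met and 940 in PT, and without Thy1 it was 1300 and 498.

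Among 20 cytotoxic and natural killer cell genes, 11 had a value and 5 were higher, none lower, with a median log2 quotient of 1.05. Gzma, which encodes granzyme A, stood at 76.3 against 19.7 (log2 quotient 1.95, adjusted p = 0.0115). Nkg7, a granule membrane protein, had 48.9 against 16.6. The receptor genes Klrb1c and Klrk1, carried by natural killer cells, had 25.1 against 7.55 and 28.3 against 9.06. Ccl5, a chemokine that killer cells secrete, completed the 5 at 107 against 33.5. Gzmb, the gene of granzyme B, did not follow: its mean was 46.7 in Lung met and 60.6 in PT (adjusted p = 0.685). Eomes, Fasl, Xcl1, Klrd1 and Cd226 were not called, and their log2 quotients ran from 0.34 to 1.05. Prf1, Ifng, Ncr1 and Gzmk, which mark these cells, were among 9 genes without a row under their symbols here.

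B cell and plasma cell genes were in part higher. Of 20 B cell genes only 8 had a value, and 4 were higher and none lower, with a median log2 quotient of 1.29. The immunoglobulin kappa constant gene Igkc stood at 474 against 45.8 (log2 quotient 3.37, adjusted p = 0.00248), and Cd79b, a signaling chain of the B cell receptor, at 71.2 against 9.4 (log2 quotient 2.92). Cd22, an inhibitory receptor, had 76.6 against 29.7, and the kinase gene Blk 9.95 against 1.77. Ighm (273 against 125) and Cxcr5 (15.9 against 6.83) were not called, nor were the transcription factor genes Ebf1 (40.4 against 50.1) and Pou2af1 (35.9 against 35.6). Ms4a1 and Cd79a, which define B cells, were among 12 genes without a row under their symbols here. Of 7 plasma cell genes with a value, Jchain, Igha and Sdc1 were higher, with log2 quotients of 2.42, 2.84 and 0.77. Sdc1, at 5400 against 3180, is also a gene of mammary epithelium, and Xbp1, Prdm1, Irf4 and Derl3 were not called.

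Genes by which lymphocytes home to tissue gave the highest median of the lymphocyte lists. Of 18 such genes 13 had a value and 8 were higher, none lower, with a median log2 quotient of 2.14. Ccl17 and Ccl22, the ligands of the receptor CCR4 that dendritic cells make, had means of 333 against 17.8 and 91.6 against 11.3. Ccl21a, a chemokine of lymphatic vessels and lymph nodes, had 1440 against 113 (log2 quotient 3.67, adjusted p = 0.00998), and near-identical copies of this gene in the mouse leave its count uncertain. S1pr1, the sphingosine-1-phosphate receptor by which lymphocytes leave lymphoid organs and which endothelium also carries, had 984 against 223. Named beyond the rule after their values were seen, Selplg, Ltb and Cxcl10 were higher by log2 quotients of 1.77, 2.17 and 2.2. Cxcl13, Cxcl9, Cxcr3 and Cxcr6 did not pass, at -0.69, 0.9, 1.43 and 0.72.

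**Figure D2:**
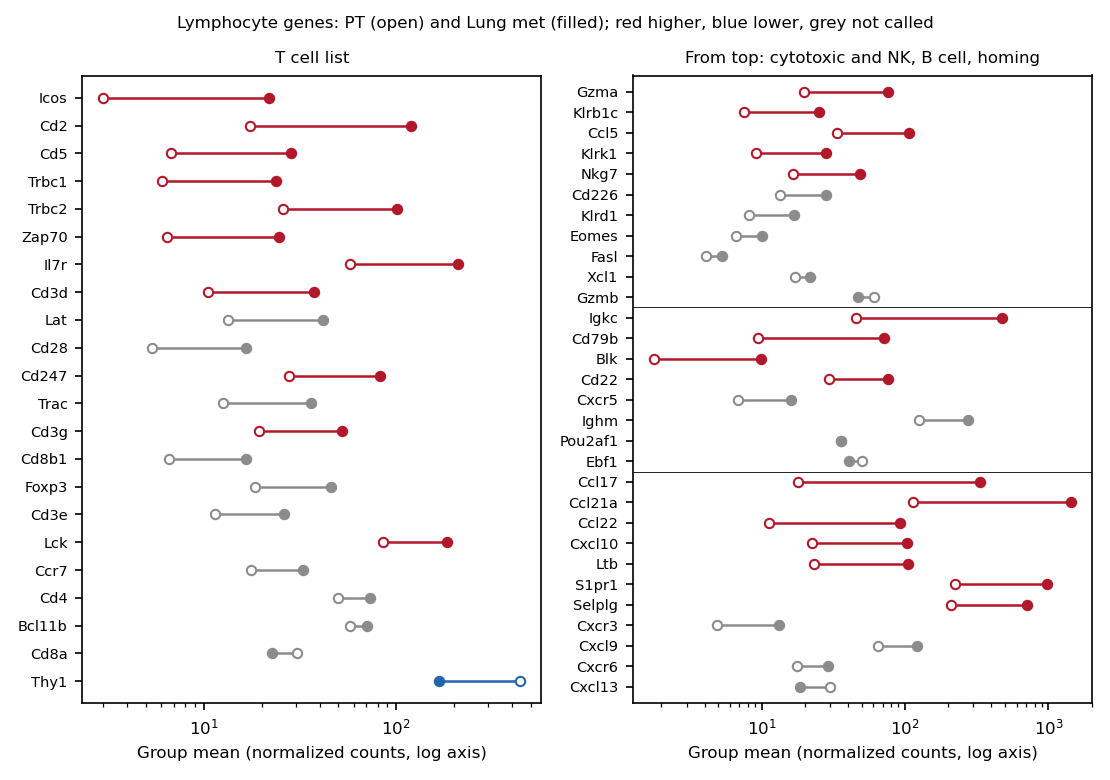
Each line joins the PT mean (open circle) and the Lung met mean (filled circle) of 1 gene, in normalized counts on a log axis, with genes of the T cell list on the left and of the cytotoxic, B cell and homing lists on the right. Red lines mark genes called higher, blue the 1 called lower (Thy1, 442 to 167), and grey those not called, among them Cd8a and Gzmb, whose Lung met mean is the smaller.

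The promoters of 3 genes are shown to give the sequence before the start of a T cell gene, a killer cell gene and a chemokine gene of these lists. Each belongs to the called member of its list with the smallest p-value among those that had a RefSeq promoter whose window lay clear of annotated genes. The windows hold 250 bases before the RefSeq transcription start on GRCm38.p6, printed along the gene's own strand, and capitals mark the letters TGTGGT, bound by RUNX factors, and AGGAAG, bound by ETS factors, or their reverse complements. Cd3g lies at chr9:44980432-44980681 (minus strand), Gzma at chr13:113100982-113101231 (minus strand) and Ccl17 at chr8:94810203-94810452 (plus strand).
Cd3g: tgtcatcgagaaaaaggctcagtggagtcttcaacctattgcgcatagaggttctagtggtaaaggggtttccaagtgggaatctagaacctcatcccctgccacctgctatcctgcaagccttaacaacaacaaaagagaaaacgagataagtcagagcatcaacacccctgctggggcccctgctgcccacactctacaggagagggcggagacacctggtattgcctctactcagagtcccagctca
Gzma: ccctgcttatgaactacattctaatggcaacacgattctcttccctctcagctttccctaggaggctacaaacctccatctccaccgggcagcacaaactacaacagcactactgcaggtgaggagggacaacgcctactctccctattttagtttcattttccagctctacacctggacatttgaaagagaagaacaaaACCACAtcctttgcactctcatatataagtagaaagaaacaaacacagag
Ccl17: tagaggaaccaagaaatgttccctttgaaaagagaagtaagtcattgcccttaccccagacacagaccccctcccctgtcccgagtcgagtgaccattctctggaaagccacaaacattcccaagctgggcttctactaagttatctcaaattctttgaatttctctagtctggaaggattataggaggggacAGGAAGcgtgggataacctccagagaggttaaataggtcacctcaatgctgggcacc
The Cd3g window held neither motif, that of Gzma held 1 RUNX match and that of Ccl17 held 1 ETS match. RefSeq promoters were found for 19 of the 32 lymphocyte genes called higher. Of these, 13 (68.4%) held the ETS letters, beside 28.2% of the 11769 promoters of genes tested and 29.2% of all 27025 promoters. The RUNX letters stood in 5 of the 19 (26.3%), beside 10.9% and 14.2%. A match of letters is no binding site by itself, and the shares were not tested.

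Other blood-derived genes moved the same way. Of 12 genes of red cells and platelets 10 had a value, and 6 were higher, none lower, with a median log2 quotient of 1.84. The alpha globin gene Hba-a1 stood at 11900 against 2480 and the beta globin gene Hbb-bs at 20700 against 5490, each with a near-identical neighbor, and the platelet chemokine gene Ppbp at 104 against 6.4 (log2 quotient 4.02, adjusted p = 0.000666). Summed over the list, the level was 40700 in Lung met and 10200 in PT. Genes of the lung moved with them too, the summed level of 16 alveolar type 1 cell genes being 51000 against 23900, that of 11 alveolar type 2 cell genes 51100 against 14400, and that of 18 pan-endothelial genes 15500 against 4540. No gene with a value was at 0 in either tissue. The part of blood and of lung in the lymphocyte result was not tested.

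Neutrophil genes were mostly higher. Of 15 neutrophil and monocyte genes 13 had a value, 10 were higher and none lower, with a median log2 quotient of 2.93. Besides Mmp8 they included S100a9, a calcium-binding alarmin (4540 against 161, log2 quotient 4.82, adjusted p = 3.06e-07), Ngp, a granule protein (566 against 9.7, log2 quotient 5.87), and Cxcr2, the receptor for neutrophil-attracting chemokines (421 against 27.6). Ltf, Ace and Ccr2 were not called, at 74300 against 39400, 3890 against 2900 and 306 against 245, and Ltf, which encodes lactoferrin, is a milk protein gene too.

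Macrophage genes were divided. Of 18 measured, 5 were higher and none lower, with a median log2 quotient of 0.4. Lyz2, the lysozyme gene of macrophages and neutrophils and of alveolar type 2 cells, stood at 50700 against 12300. Gpnmb and Msr1, a lysosomal glycoprotein and a scavenger receptor, had 2020 against 407 and 477 against 227. Lyve1, at 1190 against 107 (log2 quotient 3.48), marks lymphatic and some other endothelium as well as macrophages. Adgre1, which encodes the macrophage antigen F4/80, had 381 against 421 (adjusted p = 0.829) and C1qa, a complement chain made by macrophages, 3730 against 3040 (adjusted p = 0.592). Markers of alveolar macrophages were higher for 3 of 7 with a value: Siglecf (57 against 5.99), Ear2 (804 against 40.8) and Atp6v0d2 (660 against 94.6). Marco, Chil3 and Ear1, which define these cells, had no row under their symbols here.

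Dendritic cell and antigen presentation genes lay above 1 throughout, though few passed. All 18 genes of the MHC class II and dendritic cell list had a value and a quotient above 1, with a median log2 quotient of 1.07, and 6 were higher. Clec9a and Xcr1, receptors of the cross-presenting dendritic cell, stood at 91.4 against 11.9 and 23.3 against 4.98, and the integrin gene Itgax at 1150 against 524. The class II genes themselves were mostly not called, as H2-Ab1 had 4880 against 2080 (adjusted p = 0.0806) and Cd74 had 12600 against 6640 (adjusted p = 0.239). All 15 class I genes also lay above 1, with a median of 0.71, and 3 were higher. B2m, the light chain of every class I molecule, had 37100 against 14500 (log2 quotient 1.36, adjusted p = 0.0227). H2-Q7 and H2-Q6 were higher too, at 714 against 180 and 440 against 153, but these are close copies of each other, between which reads can be split. Interferon-stimulated genes had a median of 1.06, with 19 of 20 above 1, yet Gbp4, a GTPase induced by interferon gamma, was the single call (206 against 62.6, adjusted p = 0.00956). Isg15 and Usp18, induced by type I interferon, had log2 quotients of 1.03 and 1.28 and adjusted p-values of 0.291 and 0.392.

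Genes of the lung itself were among those with the widest gaps. Of 16 alveolar type 1 cell genes 13 were higher and none lower, with a median log2 quotient of 2.7. Ager, the receptor for advanced glycation end products that lines the gas exchange surface, had 9530 against 214 (log2 quotient 5.48, adjusted p = 2.56e-06). Besides Col4a3 and Gprc5a, Akap5 stood at 997 against 105. Aqp5, Cav2 and Lmo7 did not pass, at 0.06, 0.07 and 0.63. Alveolar type 2 cell genes, those of surfactant-making cells, were higher for 7 of 11 with a value (median 2.37): Sftpd, a surfactant protein, had 9930 against 194, Napsa, a surfactant-processing protease, 2150 against 77.3, Lamp3 3430 against 140 and the lung chemokine Cxcl15 9230 against 197. Abca3, Etv5, Muc1 and Il33 were not called, and the surfactant genes Sftpa1, Sftpb and Sftpc had no row under their symbols here. Airway genes were higher for 3 of 5 with a value, the club cell enzyme Cyp2f2 standing at 491 against 74.4, Tppp3 at 626 against 171 and Rsph1 at 81.8 against 31.3. For Scgb1a1, the defining club cell gene, the table listed no value.

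Endothelial genes were called higher nearly throughout. Of 18 pan-endothelial genes 16 were higher and none lower, with a median log2 quotient of 1.61. Cldn5, a tight junction gene, had 890 against 39.5 (log2 quotient 4.49). Flt1, a VEGF receptor, Vwf, the clotting factor carrier, and Sox17, an arterial transcription factor, followed at 902 against 330, 1060 against 189 and 135 against 26.1. Pecam1, the standard marker of endothelium, had 3180 against 870 (adjusted p = 0.00278), and Emcn and Mmrn2 were the pair not called. Of 17 genes of the lung capillary and arterial list 11 were higher (median 2.13). Among them were Icam1, an adhesion ligand of leukocytes (2090 against 256), Tmem100 (709 against 33.3) and Gja5, an arterial gap junction gene (423 against 42.3). The 11 also include Itgb2, an integrin gene not confined to endothelium, at 1290 against 395. Of 6 genes of the lymphatic endothelium and mesothelium list with a value, Lyve1, Ccl21a and Flt4 were higher and none lower (median 1.65), and Flt4 had 189 against 80.6. Prox1, the transcription factor of lymphatic endothelium, lay the other way without being called, at 64.4 against 107 (log2 quotient -0.73, adjusted p = 0.221), and Mmrn1 and Reln were not called, at 2.08 and 0.83. Of 10 genes of lung mesenchyme 5 were higher and 1 lower (median 1.16). They included Inmt, a methyltransferase and the gene with the widest quotient of the table (2130 against 17.7, log2 quotient 6.91, adjusted p = 9.08e-07), and the transcription factor genes Foxf1 (254 against 9.72) and Tbx2 (263 against 28.5). Limch1 was higher as well, at 1620 against 751, while Npnt, an alveolar matrix gene also expressed in mammary epithelium, was lower, at 4980 against 8240. How much adjoining lung entered each Lung met piece, and its part in the results above, was not tested.

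Matrix genes went both ways. Of 15 fibrillar and related collagen genes, 14 lay below 1, with a median log2 quotient of -0.89, but Col8a1, a short-chain collagen, was the single call (390 against 1210, log2 quotient -1.63, adjusted p = 0.0035). At an unadjusted p under 0.05 there were 6, all of them lower. Named beyond the rule, the chains of collagens I and III did not pass: Col1a1 had 1950 against 5190 (adjusted p = 0.274), Col1a2 2190 against 6270 (adjusted p = 0.0701) and Col3a1 4040 against 10400 (adjusted p = 0.0686). The list of fibroblast genes and small leucine-rich proteoglycans held 8 genes lower and 3 higher of 28 with a value (median -0.49). Lum, which encodes the collagen-binding proteoglycan lumican, stood at 54.2 against 893 (log2 quotient -4.04, adjusted p = 0.0031). Cilp, a matrix protein induced by TGF-beta, had 73 against 911, Thbs2, an antiangiogenic thrombospondin, 313 against 1500, and Mmp3, stromelysin, 30.6 against 127. Higher instead were fibronectin (Fn1, 12100 against 4050), Prelp (871 against 279) and Ogn (481 against 161).

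Basement membrane and elastic fiber genes lay on the other side. Of 20 basement membrane genes 6 were higher and none lower, with a median of 0.24. Besides Col4a3, they included Col4a4 (592 against 100), Egflam (173 against 35.1) and Col4a1 (9160 against 3320), the last a chain of vessel basement membrane. Fbln5, Efemp1 and Mfap4, 3 of 13 elastic fiber genes, were higher by log2 quotients of 1.59, 1.7 and 1.86, and none was lower. Among smooth muscle and pericyte genes, Des (440 against 50.9) and the pericyte gene Higd1b (149 against 27.8) were higher, 2 of 11 with a value, and Acta2 and Myh11, the defining contractile genes, were listed with no value. Adipocyte genes gave 1 call each way of 6 with a value: Lpl, a lipase also made by macrophages, was higher (1750 against 603) and Plin4 lower (26.5 against 67.3). Adipoq and Plin1 had no row under their symbols here. Of 6 skeletal muscle genes Acta1 was higher, at 25.1 against 7.6. Of 11 Schwann cell and nerve genes 2 were higher, Prx and Scn7a, by log2 quotients of 1.45 and 1.6, and 1 was lower.

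Each list of mammary epithelial genes gave at most 1 call in each direction. Over all genes tested 7.69% were called, and the shares were not compared by a test. Keratins 8 and 18, which mark luminal cells, had means of 25900 against 23600 (Krt8, adjusted p = 0.831) and 29000 against 27600 (Krt18, adjusted p = 0.926), and the epithelial adhesion gene Epcam had 22900 against 22200 (adjusted p = 0.94). Of 19 luminal genes Cldn3 was higher (9630 against 5350) and Erbb3, a receptor of the EGF receptor family, lower (2260 against 3660), with a median log2 quotient of -0.04. Basal and myoepithelial genes gave 1 call of 8, Mme, at 2500 against 1110. Of 13 milk protein genes with a value, Csn1s2a, a casein gene, was lower (46.7 against 408, log2 quotient -3.13, adjusted p = 8.86e-05) and no other was called, while Csn3 had 740000 against 606000 (adjusted p = 0.826).

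No cell cycle gene was called. All 30 had a value, with a median log2 quotient of -0.04 and a range of -0.45 to 0.4, and none had an unadjusted p under 0.05 in the authors' DESeq2 comparison. Mcm6, a subunit of the replicative helicase, came nearest, at 1850 against 2530 (adjusted p = 0.371). Hypoxia and glycolysis genes gave 2 calls higher, Ankrd37 (328 against 124) and Vegfa (3790 against 1860), and 1 lower. That lower call belongs to a second identifier named Aldoa, with means of 13.6 and 33.9, which neighbors the main aldolase gene, whose means were 38600 and 35800 (adjusted p = 0.918). Of 10 genes of epithelial-mesenchymal transition factors and cadherins, Vim, the intermediate filament of mesenchymal and endothelial cells and leukocytes, was higher (12000 against 3970, log2 quotient 1.6), as was the transcription factor gene Zeb2 (556 against 277). Cdh1, which encodes E-cadherin, had 12000 against 13600 (adjusted p = 0.75).

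Of 3 small non-coding RNAs with a value, 2 were higher and Scarna2 was not called. Rpph1, the RNA of ribonuclease P, had 116 against 11.3 (log2 quotient 3.36, adjusted p = 5.26e-06). Rmrp, the RNA of the related ribonuclease MRP, was listed under a pair of overlapping identifiers, at 35.7 against 1.94 and 77.5 against 11.7, which may share reads. The list holds 18 genes, and the levels of such short RNAs depend on the selection of fragments and RNA, for which the labels and the methods differ (total RNA depleted of ribosomal RNA, or mRNA).

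**Figure D3:**
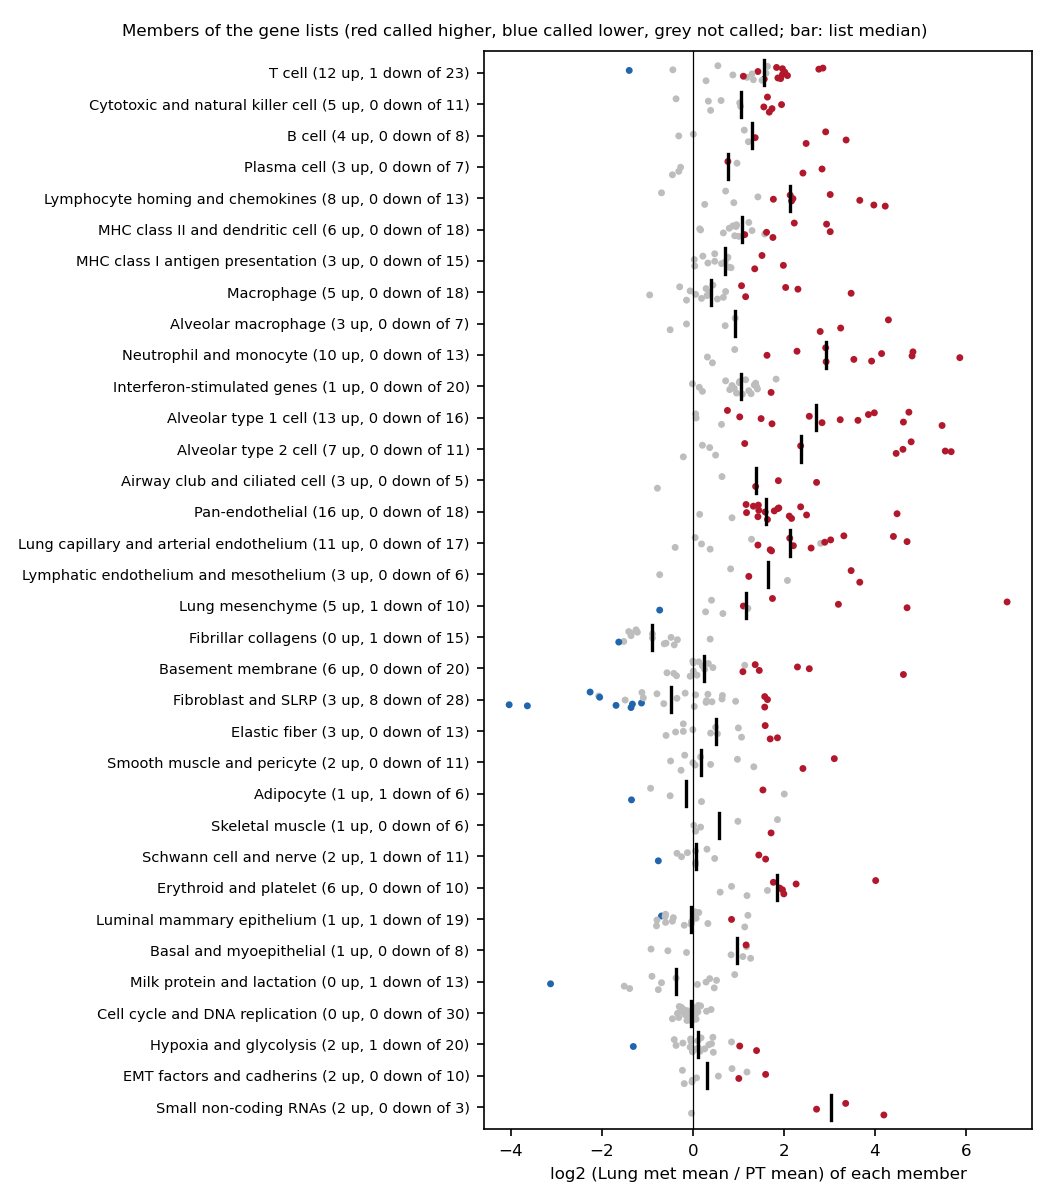
Every point is 1 list member at its log2 quotient of Lung met over PT, in 34 lists, with red for genes called higher, blue for genes called lower and grey for the rest, and a black bar at each list's median. The medians of the lung, endothelial, neutrophil and lymphocyte lists lie right of 0. Those of fibrillar and related collagens (-0.89) and fibroblast genes (-0.49) lie left of it, though in several lists some members lie on the other side. The 30 cell cycle genes lie within -0.45 and 0.4.

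The BALB and SEAGN PyMT-F1 tables give the same contrast for other crosses, and were set beside this one for genes listed in all 3. They use identifiers of a BALB/cJ annotation, with 2671 and 2684 tested rows without a symbol, so 12646 genes could be joined by symbol. Each table was normalized on its own, and it was not settled which animals lie behind the table described here. The values are therefore given side by side, and differences between tables were not tested. Rpph1 had means of 116 in Lung met and 11.3 in PT here, 32200 and 51500 in BALB, and 30900 and 44300 in SEAGN. It was called higher here, lower in BALB (adjusted p = 0.041) and not called in SEAGN. Scarna2 had 10.5 and 10.7 here, 635 and 769 in BALB, and 665 and 798 in SEAGN. The library kit was not settled, and its part in the differences between tables was not tested. In BALB 490 genes were called (2.84%), 203 higher (1.18%) and 287 lower (1.66%). In SEAGN 1885 were called (10.9%), 993 higher (5.72%) and 892 lower (5.14%).

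Of the 26 lymphocyte genes listed in all 3 tables, 12 were called higher and 1 lower here, 0 and 2 in BALB, and 7 and 3 in SEAGN, with median log2 quotients of 1.04, 0.13 and 0.46. At an unadjusted DESeq2 p under 0.05, 14 of them were higher and 1 lower here, 4 and 3 in BALB, and 10 and 3 in SEAGN. Of the 26 genes, 13 belonged to the T cell, cytotoxic and B cell lists. Of these 13, 5 were called higher and 1 lower here, 0 and 2 in BALB, and 2 and 3 in SEAGN. Lck, for example, had a log2 quotient of 1.11 here (adjusted p = 0.0386), -0.03 in BALB (adjusted p = 0.988) and 0.09 in SEAGN (adjusted p = 0.943). Ltb, a lymphotoxin chain of lymphocytes, had 2.17, 0.16 and 0.69, and Ccl5 had 1.68, -0.12 and 0.84. Each was called here and in neither of the other tables. The means of Ltb in Lung met and PT were 105 and 23.2 here, 11.2 and 10.1 in BALB, and 15 and 9.3 in SEAGN. Those of Ccl5 were 107 and 33.5 here, 13.3 and 14.5 in BALB, and 15.4 and 8.65 in SEAGN. Il7r, S1pr1 and Selplg were called higher here and also in SEAGN, where their log2 quotients were 1.34, 1.25 and 0.92. The immunoglobulin gene Igkc had 3.37, 2.4 and 3.39, with adjusted p-values of 0.00248, 0.266 and 0.000322. Thy1 was lower in all 3 tables, by log2 quotients of -1.4, -2.46 and -2.68. The Lung met level of Ptprc over PT was 0.96 on the log2 scale here, 0.09 in BALB (adjusted p = 0.956) and 0.54 in SEAGN (adjusted p = 0.227).

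Of the 15 fibrillar and related collagen genes, 1 was called lower here (Col8a1), 11 in BALB and 12 in SEAGN. Their medians were -0.89, -1.49 and -1.79. Lum was lower in each table, with log2 quotients of -4.04, -4.69 and -5.39. The 18 pan-endothelial genes had 16 calls higher here, 5 in BALB and 7 in SEAGN, with medians of 1.61, 0.57 and 0.53. Alveolar type 1 genes were higher in each, for 11, 8 and 12 of 14. Interferon-stimulated genes had medians of 1.02, -0.65 and -0.07 over 16 genes, with no call in any of the 3 tables. At an unadjusted DESeq2 p under 0.05, 7 of them were higher here and none lower, 9 were lower in BALB and none higher, and none passed in SEAGN. Vim was called here, at 1.6, and in neither of the others, at 0.06 (adjusted p = 0.967) and -0.33 (adjusted p = 0.521). Of the 729 joined genes called higher here, 100 were higher in BALB (13.7%) and 255 in SEAGN (35%), beside 1.38% and 6.93% of all 12646 joined genes, and 3 and 11 were called lower. Of the 275 called lower here, 29 were lower in BALB (10.5%) and 37 in SEAGN (13.5%), beside 1.37% and 5.16% of all joined genes, and 1 and 7 were called higher.

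**Figure D4:**
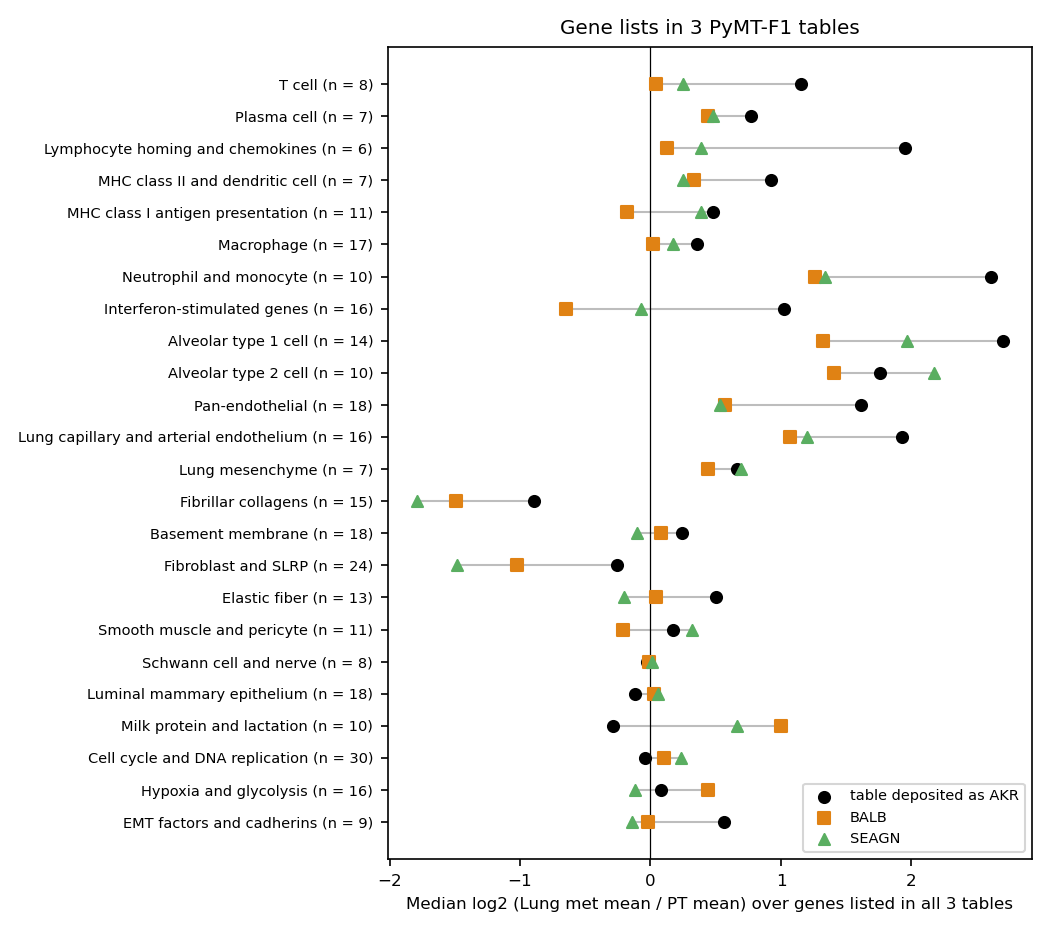
Each row is a gene list with at least 6 members listed in all 3 PyMT-F1 tables, and the markers give the median log2 quotient of Lung met over PT in the table deposited as AKR (black circle), BALB (orange square) and SEAGN (green triangle). The black circle lies farthest right in 16 of the 24 lists. Among them are T cell (1.15), homing (1.95), neutrophil (2.61), interferon-stimulated (1.02), pan-endothelial (1.61) and fibrillar and related collagen genes (-0.89). Differences between tables were not tested.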

How the data were processed

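RNA-seq libraries were made from PT and Lung met tissue of PyMT-F1 females. Per the labels, the submitters' processing notes name STAR 2.7.8a and genome build mm39, whereas the methods name older mouse builds, and the labels and methods also differ on the library kit, so build and kit were taken as unsettled. The deposited table held, per gene, a p-value from the authors' DESeq2 comparison and a signal value for each tissue, the authors' least squares mean of normalized counts. Columns with the authors' FDR, ratio and fold change were not used. Counts per library, and therefore depth, are unknown. The p-values weigh the difference between tissues against the spread between samples in the authors' model. They do not give that spread itself, and the number of libraries limits their precision.

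The Lung met mean was divided by the PT mean and the log2 taken, with no pseudocount and no filter. The p-values were adjusted again by the Benjamini-Hochberg method over the 17829 genes with a p-value, and genes with an adjusted p under 0.05 were called. The adjustment was tested on simulated data. The strain columns of a supplementary table were compared with the quotients by symbol: 269 of 275 were equal within 0.5% for BL6, 8 of 258 for SEAGN, 4 of 251 for MOLF, 2 of 256 for CAST, 1 of 261 for BALB and 1 of 273 for BL10. Gene positions came from GENCODE M21 (GRCm38), in which 17782 of 17829 identifiers were found, and promoters from RefSeq (GRCm38.p6).

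The members, gene lists and tests were chosen with earlier results of these data known. Genes were named by rule: the 10 with the smallest p-value called in each direction, up to 4 called members of each list in each direction, all members of the T cell, cytotoxic and B cell lists, the member with the smallest p-value where a list had no call, and common markers of each tissue. Some genes that the rule names are not reported here, though counts include them. Members named as not called in other lists, and others outside the rule, were chosen after their values were seen. The alternatives were other thresholds, a fold limit, a floor on the means, symbols occurring once, pseudocounts, and centring of list medians. Python 3.11.15, pandas 2.3.3, numpy 2.4.6, scipy 1.17.1 and matplotlib 3.10.9 were used.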

Additional observations from a re-analysis of the deposited data

How the results depend on the processing

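At an adjusted p under 0.01 the number of genes called went from 1371 to 750, of which 81.2% were higher in Lung met. At an adjusted p under 0.1 there were 1926 calls with 69.6% higher, and with a limit of 2-fold 981 calls with 86.2% higher, beside 74.7% at 0.05. A floor of 10 on the mean of both tissues gave 1383 calls, symbols occurring once gave 1361, and adjustment over all rows listed, chosen after seeing the data, gave 1369. Among the lymphocyte lists, an adjusted p under 0.01 left 5 T cell, 2 B cell, 7 homing, 0 cytotoxic and 0 plasma cell genes higher (7 and 3 of the last lists at an unadjusted DESeq2 p under 0.05), and Thy1 was no longer called. Of 153 named genes, 35 lost their call at 0.01 and 9 at the 2-fold limit, while Trac, Foxp3, Lat and Cd226 passed at 0.1. A pseudocount of 10 moved 32 of the 153 quotients by over 1.5-fold, and a pseudocount of 1 moved none so far. None of these settings can move a gene's quotient to the other side of 1, so they do not test direction.

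No paired analysis was possible because the table gives 1 mean per tissue, although animal numbers in the titles recur in PT and Lung met. Leaving out single replicates could not be done for the same reason. Depth was unknown, so genes with means of a few normalized counts, such as Icos and Blk in PT, carry a counting error that cannot be given.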

Other observations

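Further gene families outside the lists held several called members. They were chosen after their values were seen and were not tested as sets. All 8 Gimap genes measured, which encode GTPases of lymphocytes and endothelium, were called higher in Lung met, with a median log2 quotient of 1.8. Of 26 C-C and C-X-C chemokine ligand genes 12 were higher and none lower (median 0.89), among them Ccl2, Ccl3, Ccl6, Cxcl12, Cxcl16 and Cxcl17. Of 19 C-type lectin genes named Clec, 8 were higher and none lower (median 1.04), including the myeloid receptors Clec7a and Clec4e. Of 18 semaphorin genes, Sema3a, Sema3c, Sema3d, Sema3e and Sema3g, which encode secreted proteins, were higher, and Sema4c and Sema4g, which encode membrane proteins, were lower. Both subunits of soluble guanylate cyclase were higher, Gucy1a1 standing at 475 against 59.1 beside Gucy1b1. Of 10 toll-like receptor genes none was called (median 0.06), and Tlr13 was the 1 gene with an unadjusted DESeq2 p under 0.05, at 351 against 201.

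Long non-coding RNA genes were called lower more often than higher, unlike protein-coding genes. Of 1698 tested, 65 were lower (3.83%) and 21 higher (1.24%), with a median log2 quotient of -0.206, and of 14055 protein-coding genes 275 were lower (1.96%) and 959 higher (6.82%). Long non-coding genes made up 18.7% of all lower calls and 2.05% of all higher calls, and protein-coding genes 79.3% and 93.7%. The difference was not tested. Meg3, an imprinted RNA, stood at 48.1 in Lung met and 169 in PT, and Rian, from the same imprinted cluster, at 45.5 against 196. Saa1, which encodes an acute phase protein, was lower as well, at 512 against 2570.

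H2-Ea, which encodes the alpha chain of the class II E molecule, had means of 27.1 in Lung met and 17.5 in PT (adjusted p = 0.436). Its partner H2-Eb1 had 2830 and 1400 (adjusted p = 0.144), and levels were not compared between these genes. As background, H2-Ea is transcribed in the k haplotype that AKR/J carries, and its promoter is deleted in the b haplotype of C57BL/6. Each F1 animal also carried the alleles of its FVB parent, and the strain was not read from these levels.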
